A study of Homo sapiens with 6 samples.

Results

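Box C/D small nucleolar RNA (snoRNA) genes were examined in RNA-seq libraries of LPS-treated and untreated cells that are labelled as endothelial. Members were chosen by 2 criteria, a symbol that begins with SNORD and a number, and a mean over all 6 libraries of at least 0.5 FPKM, a unit that divides fragment counts by transcript length and by the library's mapped fragments. This gave 68 genes out of 283 SNORD genes and 61556 annotated genes. The members were selected on this mean, so their level is a description and not a finding. The treated cells were exposed to lipopolysaccharide (LPS), a membrane component of Gram-negative bacteria, and received it at 1000 ng/ml over 12 h (3 libraries). They were set against control cells of the same 12 h time point (3 libraries). Both groups are given as wild type and as EA.hy926, an established hybrid line of an umbilical vein endothelial cell and a lung carcinoma cell, grown in DMEM with fetal bovine serum. The titles also name primary umbilical vein cells (HUVECs), and the treatment field reads the same for both groups, so the groups were taken from the titles. Whether libraries of a group are separate cultures is not in the labels. A p-value therefore reflects only how far these libraries vary, and that variation may be technical.

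Box C/D snoRNAs are short nucleolar RNAs, most of them cut out of the introns of a host gene after splicing. A conserved C box near the start and a D box near the end fold together and bind fibrillarin (FBL), NOP56, NOP58 and SNU13, and a stretch next to the box pairs with ribosomal RNA (rRNA) and directs methylation of a ribose there. Some members do not guide methylation but help to cut the rRNA precursor (U3, U8), and others, such as the imprinted clusters on chromosomes 14 and 15, have no established rRNA target.

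The sequences below are those of members on which the results turn, 5′ to 3′ as in the RNA but written with T, from the GENCODE 29 transcripts at GRCh38 coordinates. Capitals mark the C box (TGATGA, or its first 5 letters TGATG) within the first 20 bases and the D box (CTGA) within the last 15. SNORD16 was the only member called different between the groups. It lies in an intron of RPL4 at chr15:66502812-66502910, minus strand.
SNORD16: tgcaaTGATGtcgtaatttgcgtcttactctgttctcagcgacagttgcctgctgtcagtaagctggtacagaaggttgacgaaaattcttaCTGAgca
SNORD58B (chr18:49491664-49491729, minus strand) was the most abundant member, and SNORD58A (chr18:49491283-49491347, minus strand) comes from the same host gene, RPL17, at a far lower level.
SNORD58B: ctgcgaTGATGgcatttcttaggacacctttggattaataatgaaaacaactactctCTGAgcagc
SNORD58A: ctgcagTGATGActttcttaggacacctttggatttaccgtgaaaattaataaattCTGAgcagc
SNORD114-18 (chr14:100975825-100975896), SNORD114-9 (chr14:100966029-100966100) and SNORD114-20 (chr14:100981004-100981075), all on the plus strand, are similar copies of the chromosome 14 cluster at very different levels.
SNORD114-18: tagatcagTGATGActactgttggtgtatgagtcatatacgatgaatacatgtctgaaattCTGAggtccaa
SNORD114-9: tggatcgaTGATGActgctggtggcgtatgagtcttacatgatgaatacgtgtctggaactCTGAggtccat
SNORD114-20: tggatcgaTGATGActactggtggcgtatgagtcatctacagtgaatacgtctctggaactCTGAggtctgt
SNORD14B (chr11:17075779-17075868) and SNORD14D (chr11:123058909-123058995), both on the minus strand, are U14 copies whose values jumped between libraries of the same group. No CTGA was found within the last 15 bases of SNORD14D.
SNORD14B: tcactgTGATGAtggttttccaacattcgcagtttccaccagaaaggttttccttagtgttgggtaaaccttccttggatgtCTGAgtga
SNORD14D: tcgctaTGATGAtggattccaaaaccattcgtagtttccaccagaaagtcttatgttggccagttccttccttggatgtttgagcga

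Summed FPKM over all genes lay between 427920 and 483345 per library, and 26436 to 27944 genes were above 0. FPKM keeps no read depth, so the number of fragments behind a value is unknown. All 10 endothelial markers were tested, with a summed 436 to 573 FPKM in the LPS libraries and 372 to 485 FPKM in the controls. Of 6 leukocyte markers, 3 were at 0 everywhere, PTPRC and CD3E among them, and the list summed to 4.30 to 6.64 FPKM in the LPS libraries and 3.70 to 7.61 FPKM in the controls, nearly all of it from CD68. Of 8 epithelial or A549 markers, 4 keratins were at or above 0.5 FPKM, and 8 fibroblast or smooth muscle markers summed to 3760 to 4293 FPKM in the LPS libraries and 3911 to 4263 FPKM in the controls. COL1A1, COL1A2 and COL3A1 averaged 1460, 1243 and 739 FPKM over all libraries, and the rest of this list 17.2 (LUM) to 363 (TAGLN). VWF, the highest endothelial marker, averaged 135 FPKM. The fibroblast or smooth muscle sum exceeded the endothelial sum in every library. Sums of unlike lists do not measure shares of cell types. All 10 endothelial markers were present beside high fibroblast or smooth muscle markers, so these markers alone do not settle the cell type. The cause was not tested.

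Most box C/D genes were at low FPKM. Of the 283 SNORD genes, 231 were above 0 in at least 1 library and 52 were at 0 in all of them. The means of the 68 members ran from 0.513 to 65.7 FPKM with a median of 1.17, and 40 members reached 1 FPKM and 5 reached 10. Of the 68, 59 were above 0 in every library. A mean under 0.5 FPKM in 1 of the groups was found for 13 members, 8 of them in controls only and 5 in LPS libraries only. SNORD16 and SNORD1B were among these 8, and SNORD42B and SNORD114-9 among these 5. Such members passed the cut-off only through the group where they were high, so their group difference and the cut-off are not independent. The cut-off fell between SNORD117 (0.513), SNORD13 (0.523) and SNORD113-5 (0.572) just inside, and SNORD6 (0.448), SNORD95 (0.447) and SNORD13P1 (0.441) just outside, all in mean FPKM.

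**Figure D1:**
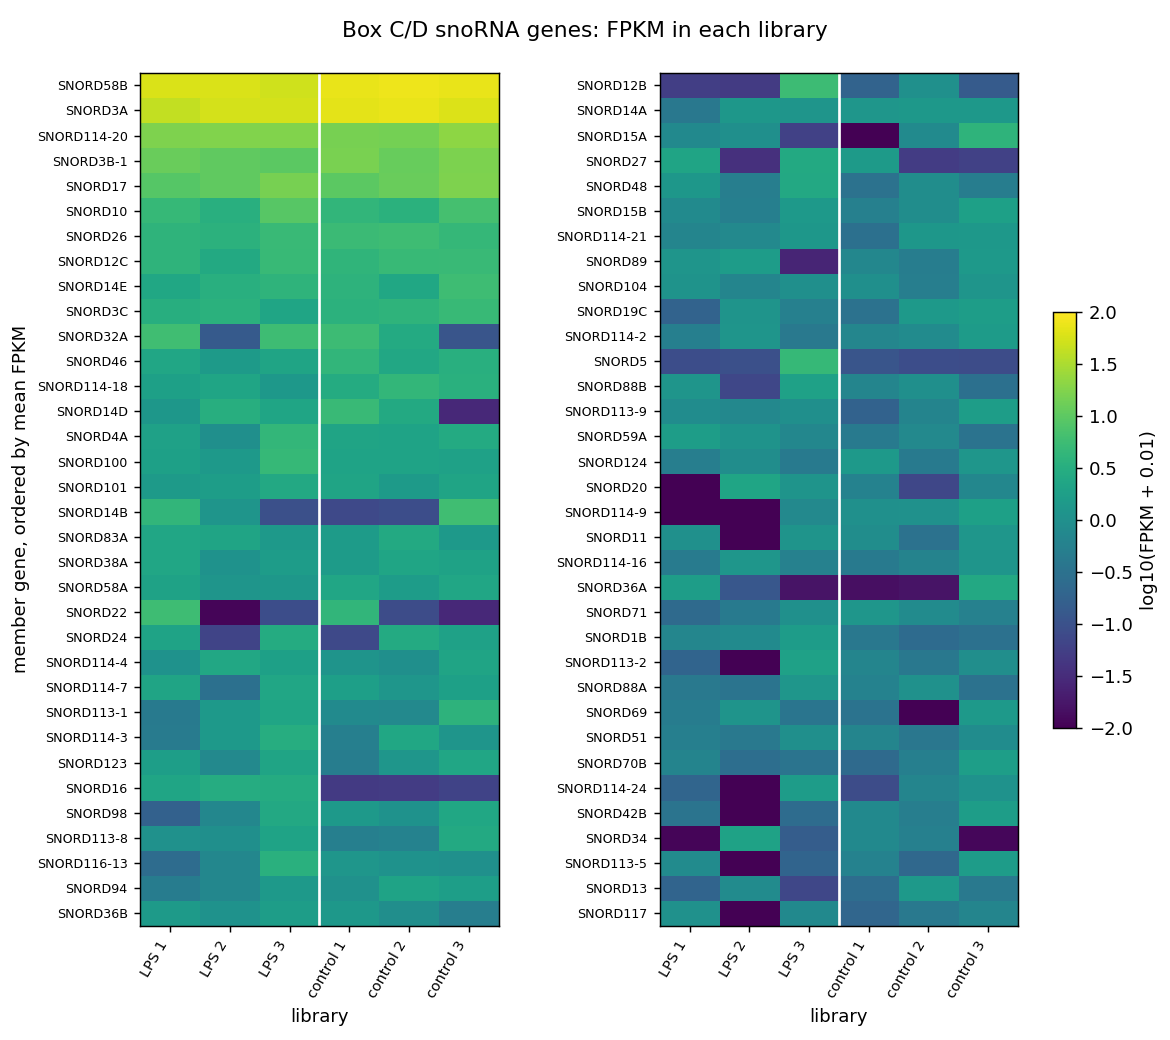
Level of each of the 68 members in each library, as log10(FPKM + 0.01) on the colour scale, with members ordered by mean FPKM from top left to bottom right and LPS libraries left of the white line, control libraries right of it. A few U3 and SNORD58B values stand at the top, most members lie near 1 FPKM, and SNORD16 changes colour at the line.

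SNORD16, a guide of ribose methylation in the rRNA of the small ribosomal subunit, was higher in LPS-treated cells. It had 2.26, 2.997 and 2.88 FPKM in the LPS libraries, against 0.0373, 0.0422 and 0.0541 FPKM in the controls. Every LPS library was far above every control, and the values within each group lay close together. The means were 2.71 ± 0.397 FPKM with LPS and 0.0445 ± 0.00861 FPKM in controls (SD, n = 3 each). SNORD16 rose by 2.55 on the log2(FPKM + 0.5) scale (standard error 0.17), where the added 0.5 shrinks the changes of low genes. In limma's test over the 15944 genes with a mean of at least 0.5 FPKM, its adjusted p was 0.0119 and its unadjusted p of 7.49e-07 was the lowest of all. SNORD16 is named in the rule that defined the members, so this test describes the table and is not independent evidence. SNORD16 also reached the filter of 0.5 FPKM only through its LPS libraries, since its control mean was 0.0445 FPKM. Its adjusted p and its rank thus rest on a filter that its values with LPS decided. The call was lost under 4 alternatives: without LPS replicate 2 (adjusted p = 0.0807), with no filter on low values (0.187), with a term for the replicate number (0.172), and with short and long genes moderated apart (0.0836), against 0.00956 to 0.0492 under all other alternatives run. In a bulk library, fewer cells with the RNA and less RNA per cell cannot be told apart.

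Members varied widely within groups. On the log2(FPKM + 0.5) scale of the test, the median standard deviation within groups was 0.58 over the members. That of SNORD16 was 0.13, a value that the added 0.5 makes small because its controls lie far below 0.5 FPKM. Over the 384 tested genes shorter than 300 bases this median was 0.53, and over the 15560 longer genes 0.21. Among genes under 5 FPKM it was 0.56 for the 329 short ones and 0.24 for the 8191 longer ones, so short genes varied more between replicates also at low levels.

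RPL4, the host gene of SNORD16 and a protein of the large ribosomal subunit, did not pass the test. RPL4 had 166, 219 and 182 FPKM in the LPS libraries, against 344, 216 and 205 FPKM in the controls, and its log2 change was −0.40 (adjusted p = 0.607). The groups overlapped. On the log2(FPKM + 0.5) scale SNORD16 minus RPL4 was −5.91, −5.97 and −5.76 in the LPS libraries and −9.33, −8.64 and −8.53 in the controls. Relative to its host, SNORD16 was thus higher by 2.95 with LPS (standard error 0.26). Leaving out each library gave 2.71 to 3.10, the lowest without control 1, where RPL4 was highest. With 0.1 or 1 added in place of 0.5 the difference was 4.67 or 2.22. These differences too are a description, since the rule names SNORD16 as rising. An exact permutation test over libraries gave p = 0.1 for the main difference. That is the smallest value that 3 libraries against 3 can give, so this test cannot decide, and no conclusion is drawn from it.

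The other snoRNA genes of RPL4 were lower and did not split by group. SNORD18A, below the cut-off, had 0.854, 0.0174 and 0.0295 FPKM in the LPS libraries and 0.0170, 0.0112 and 1.64 FPKM in the controls, so 1 library of each group was high. SNORD18C averaged 0.00783 FPKM over all libraries and SNORD18B was listed at 0 in all. The whole SNORD16 gene also lies inside an annotated exon of a retained-intron transcript of RPL4, RPL4-214. This transcript had 12.3, 66.3 and 11.9 FPKM in the LPS libraries, against 5.24, 21.5 and 13.9 FPKM in the controls, and the groups overlapped. A second retained-intron transcript that covers part of SNORD16, RPL4-203, was listed at 0 in all libraries except control 1, which had 198 FPKM. How fragments were shared between these transcripts and SNORD16 is not given in the sources used here, and the part of this sharing in the SNORD16 values was not tested.

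**Figure D2:**
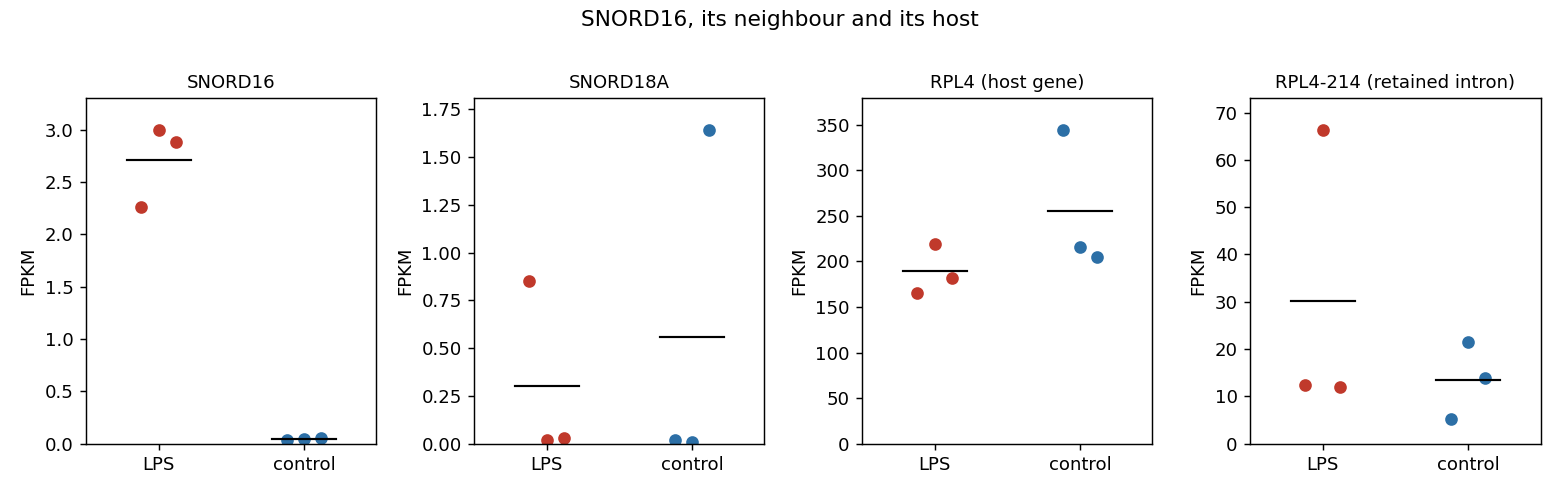
FPKM (linear axes from 0, different for each panel) of SNORD16, SNORD18A, the host gene RPL4 and its retained-intron transcript RPL4-214 in the 3 LPS libraries and the 3 control libraries; points are libraries and lines are group means. The groups separate for SNORD16, with 2.26 to 2.997 FPKM against at most 0.0541 FPKM, and overlap in the other panels.

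Across the 68 members, 1 was called higher with LPS at an adjusted p under 0.05 and 0 were called lower, where 0.0376% and 0.0125% of all 15944 genes were called higher and lower and 0.0502% in either direction. By sign, 29 members were higher and 39 lower (57.4% lower, against 51.1% of all tested genes). The median log2 change was −0.08 over the members and −0.01 over all tested genes. At an unadjusted p under 0.05, 10 members passed (14.7%, against 9.21% of all genes), 3 of them higher (4.57% of all genes) and 7 lower (4.63% of all genes). The LPS libraries all lay above the controls for 2 members and all below for 7, together 13.2% of members, against 15.9% of all genes with no overlap (8.13% above and 7.76% below). The members' share of separated genes was thus near that of the whole table. Summed FPKM of the members was 227, 221 and 269 in the LPS libraries and 266, 274 and 300 in the controls. These sums overlapped, since LPS 3 (269) lay above control 1 (266). Summed epithelial markers lay apart, with 91.2 to 114 FPKM in the LPS libraries and 125 to 138 FPKM in the controls. Of the 4 tested keratins, KRT8, KRT18 and KRT19 were lower in every LPS library than in any control, while KRT7 was higher, at 23.8 ± 7.54 FPKM with LPS and 17.0 ± 0.935 FPKM in controls (SD, n = 3 each). All 10 endothelial markers were higher by sign with LPS, with a median log2 change of 0.24. For 4 of them every LPS library lay above every control, though the sums of this list overlapped. Of the 8 fibroblast or smooth muscle markers, 3 were higher by sign, and for 2 every LPS library lay below every control. None of the tested markers was called. The part of these markers in the members' values was not tested.

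**Figure D3:**
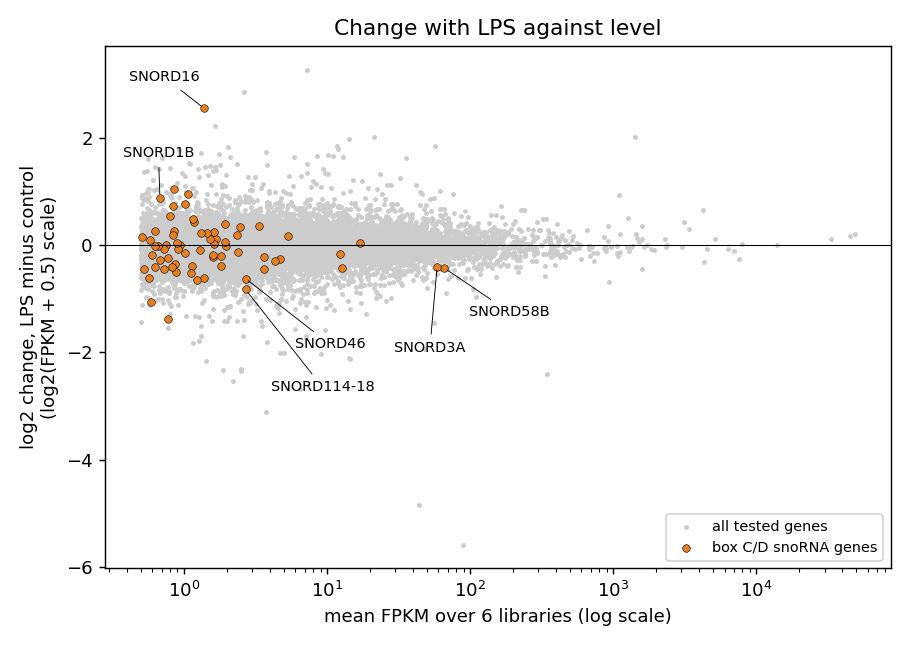
Log2 change, LPS minus control on the log2(FPKM + 0.5) scale, against the mean FPKM over 6 libraries (log axis), for all 15944 tested genes in grey and the 68 members in orange. SNORD16 at 2.55 stands apart from the other members, which lie on both sides of 0.

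The 3 members that encode U3, the RNA needed to cut the rRNA precursor, had lower means with LPS, without passing the test. SNORD3A, on chromosome 17, had 42.8, 54.7 and 54.9 FPKM in the LPS libraries, against 67.3, 72.7 and 60.6 FPKM in the controls. Every LPS library lay below every control, with a log2 change of −0.40 and an adjusted p of 0.430. SNORD3C had 3.18, 3.60 and 2.22 FPKM in the LPS libraries and 3.74, 3.95 and 4.89 FPKM in the controls, again without overlap (log2 change −0.44, adjusted p = 0.552). Without LPS replicate 3 the change was −0.26. SNORD3B-1 had 12.0, 10.5 and 9.71 FPKM in the LPS libraries and 15.8, 11.9 and 16.4 FPKM in the controls, and here the lowest control lay below the highest LPS library. Summed over these 3 members, U3 reached 58.0, 68.8 and 66.8 FPKM with LPS and 86.9, 88.5 and 81.9 FPKM in controls. The U3 genes are at least 98.2% identical over their first 217 bases, and identity beyond these bases was not measured. The assignment of fragments to 1 copy is thus uncertain, and the 3 members may not be separate measurements. The U3 genes below the cut-off had higher means with LPS. SNORD3B-2 had 0.324, 0.749 and 0.122 FPKM in the LPS libraries and 0.110, 0.292 and 0.213 FPKM in the controls, with overlap. Of the 2 entries of SNORD3D, 1 had 0.227, 0.00871 and 0.01004 FPKM with LPS and 0.0108, 0.0141 and 0.00658 FPKM in controls, so that LPS 1 alone was high, and the other entry averaged 0.0760 FPKM with LPS and 0.0104 FPKM in controls.

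The other box C/D RNAs of rRNA processing gave little signal. U8 (SNORD118), needed in frog oocytes for large-subunit rRNA, had 0.0440 to 0.0494 FPKM in all 6 libraries and was below the cut-off. SNORD13 (U13), which directs acetylation of a base of the small-subunit rRNA, had 0.182, 0.849 and 0.0619 FPKM in the LPS libraries and 0.255, 1.39 and 0.404 FPKM in the controls, with overlap. The U14 copy SNORD14A had 0.388, 1.28 and 1.21 FPKM in the LPS libraries and 1.25, 1.33 and 1.36 FPKM in the controls, and its copy SNORD14E 2.45, 3.32 and 3.96 FPKM with LPS and 3.90, 2.39 and 5.62 FPKM in controls. U14 is needed in yeast to process small-subunit rRNA. Neither copy passed the test (adjusted p = 0.735 and 0.857).

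Among guides of large-subunit rRNA methylation, SNORD58B was the most abundant member, and it had lower values with LPS without passing the test. It had 58.7, 59.1 and 50.5 FPKM in the LPS libraries, against 72.3, 80.5 and 73.0 FPKM in the controls. The groups did not overlap, and the log2 change of −0.42 (standard error 0.10) had an adjusted p of 0.335. SNORD58A, from the same host, had 2.02, 1.23 and 1.28 FPKM with LPS and 2.35, 1.61 and 2.35 FPKM in controls, with overlap. The whole of SNORD58B lies inside exons of protein-coding transcripts of RPL17, and RPL17 itself had 172, 154 and 211 FPKM in the LPS libraries and 309.8, 239 and 178 FPKM in the controls (log2 change −0.41, adjusted p = 0.599). Signal of SNORD58B and of RPL17 cannot be told apart in such a table.

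SNORD46, a large-subunit guide, had 2.32, 1.52 and 2.17 FPKM in the LPS libraries, against 4.33, 2.49 and 3.36 FPKM in the controls. All LPS libraries were below all controls, and the log2 change was −0.62 (adjusted p = 0.468). SNORD42B, a small-subunit guide in RPL23A named here after its values were seen, had 0.331, 0 and 0.251 FPKM with LPS and 0.783, 0.512 and 1.67 FPKM in controls (log2 change −1.06, adjusted p = 0.425). Of the 19 members in 10 ribosomal protein genes, 8 were higher and 11 lower by sign, with a median log2 change of −0.08.

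SNORD1B, a large-subunit guide in SNHG16, was the member besides SNORD16 whose LPS libraries all lay above the controls. It had 0.687, 0.815 and 1.64 FPKM in the LPS libraries, against 0.396, 0.240 and 0.296 FPKM in the controls. The log2 change was 0.89 with a standard error of 0.25, and the adjusted p was 0.403. SNHG16, a noncoding host gene, had 56.6, 51.5 and 55.8 FPKM with LPS and 53.2, 59.1 and 70.4 FPKM in controls. SNORD59A had an unadjusted p of 0.0308 with a log2 change of 0.72, but its groups overlapped.

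The chromosome 14 cluster (SNORD113 and SNORD114), an imprinted array expressed from the maternal chromosome, gave 15 members. All 39 of its genes were above 0 in at least 1 library. Of the 15 members, 6 were higher and 9 lower by sign, and 0 passed the test. SNORD114-20 stood out by level, with 16.7, 17.5 and 17.3 FPKM in the LPS libraries and 15.1, 14.7 and 21.2 FPKM in the controls, which overlap. SNORD114-18 had 1.87, 2.197 and 1.35 FPKM with LPS, against 2.93, 4.39 and 3.42 FPKM in controls. Its groups did not overlap and its log2 change of −0.83 (standard error 0.20) had an adjusted p of 0.336. SNORD114-9, named after its values were seen, was listed at 0, 0 and 0.752 FPKM with LPS and had 1.01, 1.04 and 1.84 FPKM in controls (log2 change −1.37, adjusted p = 0.403). SNORD114-9 and SNORD114-20 are 91.7% identical, so their assignment is uncertain.

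Summed over its members, the chromosome 14 cluster had 27.4, 30.3 and 37.9 FPKM in the LPS libraries and 26.7, 30.7 and 47.8 FPKM in the controls. MEG8, the noncoding host gene of most of them, had 21.9, 24.6 and 38.9 FPKM with LPS and 24.1, 24.6 and 40.1 FPKM in controls. Both sums were highest in replicate 3 of each group, and the groups overlapped. Of the imprinted clusters on chromosome 15, all 30 SNORD116 genes were above 0 but only SNORD116-13 reached the cut-off, with a mean of 1.29 FPKM. It had 0.246, 0.705 and 3.42 FPKM in the LPS libraries and 1.27, 1.07 and 1.01 FPKM in the controls. The 48 SNORD115 genes gave 0 members, and 10 of them were above 0.

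The remaining abundant members did not separate by group. SNORD17, in SNX5, had 8.96, 10.6 and 15.2 FPKM with LPS and 9.86, 12.2 and 16.9 FPKM in controls. SNORD10, in EIF4A1, had 4.75, 3.38 and 9.24 FPKM with LPS and 4.35, 3.62 and 6.56 FPKM in controls. Their log2 changes were −0.16 and 0.16 (adjusted p = 0.872 and 0.921), and both were highest in replicate 3 of each group.

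The jump that SNORD16 showed between groups was seen in other members between libraries of the same group. To describe it, libraries were ordered by FPKM, values under 0.01 FPKM were set to 0.01, and the widest fold gap between neighbours was taken. Of the 68 members, 12 were above 0 in all libraries with a gap of at least 10-fold (17.6%, against 103 genes or 0.646% of all tested genes). Of these 12, SNORD16 was the only one whose high libraries were exactly the LPS group. Of the 103 genes it was also the only one split by group in either direction. The gap and its threshold were chosen after the data were seen, and SNORD16 was known to be split, so this is a description.

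SNORD32A had 5.96, 0.124 and 5.63 FPKM in the LPS libraries and 5.49, 2.82 and 0.102 FPKM in the controls. SNORD14D had 1.31, 3.24 and 2.25 FPKM with LPS and 5.22, 2.64 and 0.0184 FPKM in controls. SNORD32A was low in 1 library of each group, and SNORD14D was low in 1 control. SNORD22, which in frog oocytes is needed for small-subunit rRNA, had 5.70, 0.00137 and 0.0782 FPKM with LPS and 4.22, 0.0753 and 0.0188 FPKM in controls. SNORD5 had 0.0768, 0.0845 and 4.72 FPKM with LPS and 0.103, 0.0780 and 0.0755 FPKM in controls. Here the high libraries were few, and for SNORD5 LPS 3 was the only one.

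SNORD14B had 4.31, 1.2 and 0.0855 FPKM with LPS and 0.0672, 0.0788 and 5.82 FPKM in controls. SNORD24 had 2.06, 0.0573 and 2.85 FPKM with LPS and 0.0670, 2.79 and 1.96 FPKM in controls. SNORD27 had 2.13, 0.0252 and 2.63 FPKM with LPS and 1.505, 0.0408 and 0.0499 FPKM in controls. All 3 had high and low libraries in both groups. The others with such a gap were SNORD15A, SNORD89, SNORD36A and SNORD34, with gaps of 15.8, 31.1, 14.9 and 13.99-fold. Over the 12 members, the number above the gap was 10, 6 and 7 in the LPS libraries and 6, 6 and 5 in the controls.

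**Figure D4:**
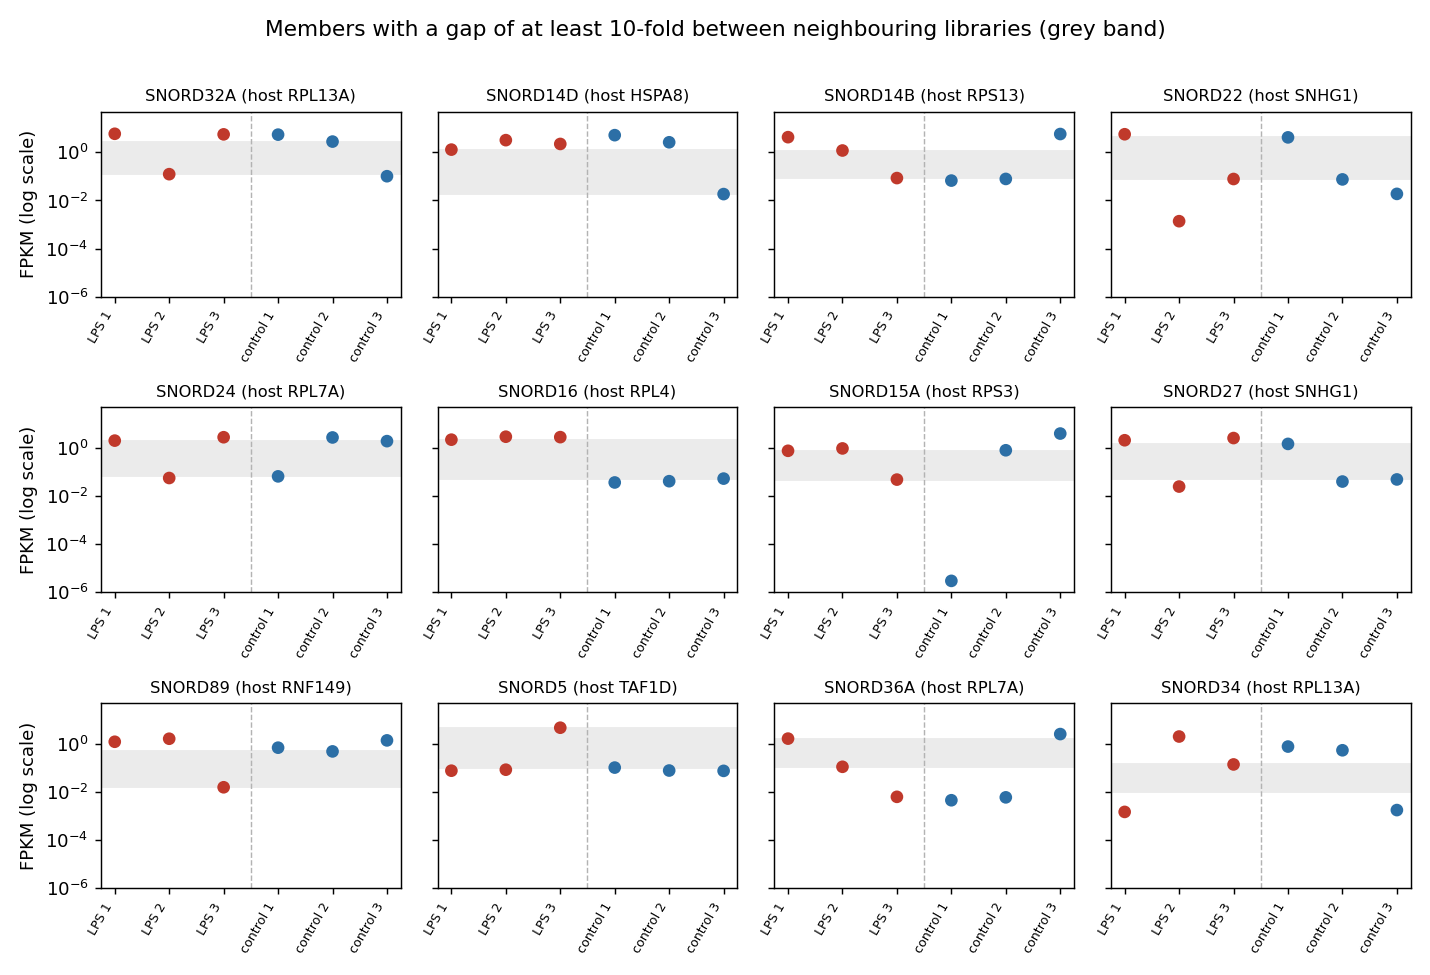
FPKM (log axis) in each LPS library (red) and control library (blue) of the 12 members with a gap of at least 10-fold between neighbouring libraries, marked by the grey band. The high libraries of SNORD16 are the 3 LPS libraries, while in the other 11 panels high and low libraries follow another order.

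All 12 members with such a gap overlap an annotated exon of a gene on the same strand. Of the members above 0 in every library, 10 of the 16 that lie wholly inside such an exon had the gap, 2 of the 7 that lie partly inside, and 0 of the 36 outside exons. The 9 members with a library at 0 were left out of these counts. With the same floor, some of them outside exons also had gaps of at least 10-fold. These were SNORD114-9 (75.2), SNORD69 (32.9), SNORD11 (31.7), SNORD117 (20.2), SNORD113-5 (18.8) and SNORD113-2 (18.4). SNORD42B, partly inside an exon, had 25.1, and SNORD20 and SNORD114-24, outside exons, had 9.39 and 7.48. The split by exon thus holds only for members above 0 everywhere. Over all 68 members, 24 overlapped an exon on the same strand (16 wholly and 8 in part) and 44 did not. For 8 of the 12, retained-intron transcripts of the host gene are among those that overlap. SNORD5, for example, lies inside TAF1D-215, at 0.312 to 0.348 FPKM with LPS and 0.325 to 0.407 FPKM in controls. SNORD14D lies inside HSPA8-215, which had 29.4, 49.1 and 49.8 FPKM with LPS and 3.15, 62.6 and 61.1 FPKM in controls. Whether the overlap has a part in the jumps was not tested.

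**Figure D5:**
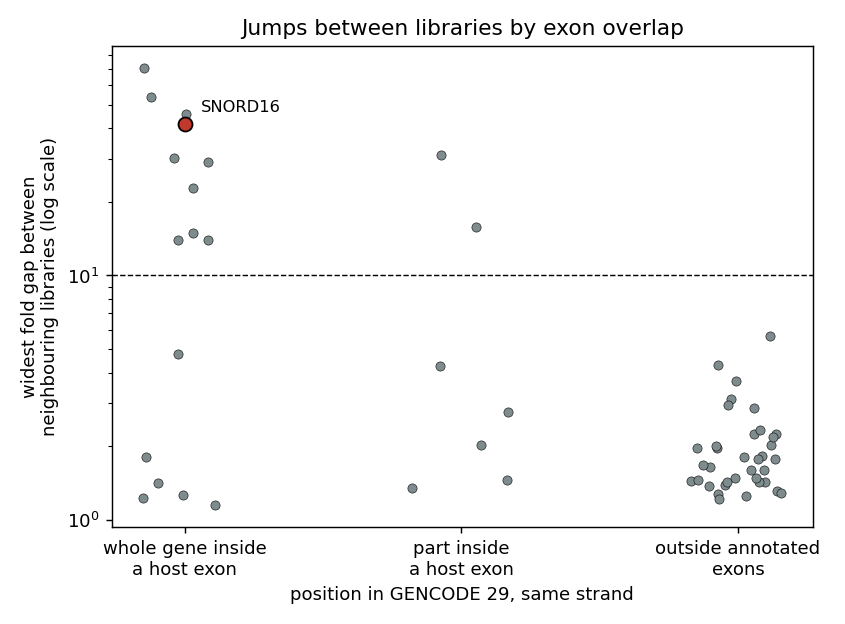
Widest fold gap between neighbouring libraries (log axis, values floored at 0.01 FPKM) of the 59 members above 0 in all libraries, by whether the gene lies wholly, partly or not at all inside an annotated exon on the same strand; points are members, the sideways spread is random and the dashed line marks 10-fold. The 12 members above the line, SNORD16 among them, are all in the exon groups. The 9 members with a library at 0 are not shown, and some of those outside exons also have gaps of at least 10-fold.

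No host gene was called, where 0.0502% of all tested genes were called, so a count of 0 is near that share. A host, defined by position alone, was found for 65 members, in 36 different genes, and 3 members had none. Of the 36 hosts, 7 were higher by sign, a smaller share than the 7796 of all 15944 tested genes, and this difference was not tested. The median log2 change was −0.10 over the hosts and −0.01 over all tested genes. Across the 65 members, which share hosts and libraries, Pearson's r between the log2 change of a member and of its host was −0.12 and Spearman's rho −0.02, and 35 had the sign of their host. Of all tested genes, 15.9% were separated by group. Among the named hosts RACK1 (host of SNORD95) was separated, with 237 to 248 FPKM with LPS and 270.2 to 334 FPKM in controls. KYNUP1, a pseudogene counted as a host only because it contains SNORD3C, was separated too. It had 28.2 to 33.3 FPKM with LPS and 33.4 to 43.6 FPKM in controls. Also separated was AC007952.4, which contains SNORD3D by position, with 0.258 to 1.99 FPKM with LPS and 2.19 to 2.39 FPKM in controls. Their adjusted p values were 0.477, 0.585 and 0.529.

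No gene of the snoRNA pathway passed the test. Among 55 tested genes of 5 lists (core proteins, assembly factors, maturation and transport factors, U3 and small-subunit processome proteins, RNA polymerase I and nucleolar factors), 0 were called in either direction, where limma called 0.0502% of all genes. At an unadjusted p under 0.05, 3 passed, all lower, where 9.21% of all tested genes passed. By sign 15 of the 55 were higher, a smaller share than the 7796 of all 15944 tested genes, and this difference was not tested. Their median log2 change was −0.09. The methyltransferase FBL averaged 39.6 ± 6.01 FPKM with LPS and 38.9 ± 4.81 FPKM in controls, and SNU13, which binds the box first, 32.5 ± 14.2 FPKM and 32.2 ± 3.85 FPKM (SD, n = 3 each). The scaffold protein NOP56 averaged 23.9 ± 3.76 FPKM with LPS and 25.4 ± 2.04 FPKM in controls, and none of these groups separated.

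Of the assembly factors, the ATPases RUVBL2 and RUVBL1 and the factor PIH1D1 had log2 changes of 0.05, −0.08 and −0.08. ZNHIT3 was the assembly factor with an unadjusted p under 0.05, at 5.19 ± 0.598 FPKM with LPS and 7.48 ± 1.44 FPKM in controls (adjusted p = 0.447). The most abundant U3 and processome proteins, IMP3, NOL6 and HEATR1, had log2 changes of −0.12, 0.14 and −0.22, and their groups overlapped. FCF1 of this list, named after its values were seen, averaged 4.48 ± 1.001 FPKM with LPS and 9.09 ± 3.08 FPKM in controls. Its log2 change was −0.91 (adjusted p = 0.416), and its groups overlapped by 1 library pair. The nucleolar chaperone NPM1 averaged 160.3 ± 7.33 FPKM with LPS and 208.7 ± 30.7 FPKM in controls (adjusted p = 0.435), without overlap. NCL and TAF1D, the next most abundant of that list, had log2 changes of 0.02 and −0.21, with overlap. The maturation and transport factors XPO1, XRN2 and NCBP1 had log2 changes of −0.15, −0.12 and −0.08, with adjusted p of 0.847, 0.773 and 0.870.

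The box letters separate SNORD genes from other short RNAs but not members from the rest. TGATG within the first 20 bases was found in 80.9% of the 68 members, CTGA within the last 15 bases in 88.2%, and both in 77.9%, on the gene's own strand. Both were found in 78.6% of the 215 SNORD genes below the cut-off, in 2.87% of 174 box H/ACA and Cajal body RNA genes and in 0.106% of 1879 microRNA genes. Members were 64 to 758 bases long as annotated, with a median of 77. Of 65 members outside U3, 6 were at least 90% identical to another SNORD gene, SNORD16 not among them, since its closest SNORD sequence was 65.7% identical. In 2 members, SNORD4A and SNORD13, an exon of a gene on the opposite strand overlaps the gene, and the counting strand is not given in the sources used here.

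Box H/ACA and Cajal body RNA genes, the other class of guide RNAs, which direct pseudouridylation, were set beside the members. Of 54 tested genes, 0 were called, where 0.0502% of all tested genes were called. By sign 13 were higher, a smaller share than the 7796 of all 15944 tested genes, and this difference was not tested. The median log2 change was −0.25, against −0.01 over all tested genes. A gap of at least 10-fold was seen in 5 of these 54, against 0.646% of all tested genes. Their summed FPKM was 512, 587 and 534 with LPS and 633, 665 and 460 in controls, and the groups overlapped.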

How the data were processed

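RNA-seq of 3 LPS and 3 control libraries was analysed. Values are FPKM as deposited by the authors for all annotated genes and transcripts. The submitters' processing notes list HISAT2 and StringTie, with no version, and the mouse build mm9. The deposited tables, however, hold human Ensembl genes placed on GRCh38, and that build was used. The sources used here give no library selection, fragment size, counting strand or depth, so no interval for counting error was computed.

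Limma 3.58.1 in R 4.3.3 was fitted to log2(FPKM + 0.5) of every gene whose 6 libraries averaged at least 0.5 FPKM (group alone, eBayes with trend, two-sided), with Benjamini-Hochberg adjustment over all 15944 tested genes and a threshold of 0.05. Adjusted p values come from this test unless another setting is named beside them. It was tested on simulated data with known changes. The simulated noise was normal, with variances taken from the same fit, and jumps between libraries of a group were not simulated. The simulation therefore cannot show how the test treats genes with such jumps. Strand, exon overlap and sequences came from GENCODE 29. The host is the smallest tested gene on the same strand that is longer than 300 bases and contains the snoRNA gene.

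The members and lists were chosen with earlier results of these data known. Named genes are SNORD16, members past the threshold and the 6 most abundant. Up to 6 separated rises and 6 separated falls, among members above 0 in all libraries, are named too. Also named are 3 SNORD genes on each side of the cut-off, the U3, U8 and U13 families, the hosts of named SNORD genes and other snoRNA genes of RPL4. Of each pathway list, called genes or else the 3 most abundant are named. Any other gene with values was added after values were seen. The host of 1 named member is not reported here. Alternatives were other pseudocounts (0.1 and 1) and filters, median-of-ratios and quantile scaling, a replicate block, library weights, robust and length-class eBayes, the transcript table and leaving out each library.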

Additional observations from a re-analysis of the deposited data

How the results depend on the processing

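The count of box C/D genes called higher, 1 (SNORD16), fell to 0 with no filter on low values, with the replicate block, with eBayes by length class and without LPS replicate 2; no box C/D gene was called lower under any setting run. At the first 2 of these settings no gene of the table was called. SNORD16 kept its log2 change of 2.55 at adjusted p = 0.187 with no filter, 0.172 with the replicate block and 0.0836 by length class. Leaving out each library gave changes of 2.49 to 2.66, the lowest without LPS replicate 2 (adjusted p = 0.0807). With pseudocounts of 0.1 and 1 its change was 4.27 and 1.82. The labels number the replicates but do not say whether same-numbered libraries are paired. Same-numbered libraries correlated at 0.03, 0.12 and 0.09 in their deviations from the group means, and every library correlated best with its own number. The main test used no pairing, and pairing was not excluded. The causes were not tested. Counts of called hosts and pathway genes stayed at 0. The median change of members ranged from −0.225 to 0.0508 when single libraries were left out. Changes that missed the threshold turned sign for SNORD117 (−0.044 with a pseudocount of 0.1, and −0.0202 to 0.655 when single libraries were left out), and when single libraries were left out for SNORD10 (−0.206 to 0.457), SNORD114-20 (−0.0587 to 0.201) and SNORD17 (−0.366 to 0.0408). SNORD1B fell below the cut-off without LPS replicate 3. Depth is unknown and short genes varied more between replicates than long ones, which limits what 3 libraries a group can show.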
